A study of Rattus norvegicus with 8 samples.

Results

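The elastic fibre components are 10 genes: elastin (Eln), the fibrillins Fbn1 and Fbn2, the fibulins Fbln1, Fbln2, Fbln5, Efemp1 and Efemp2, and the microfibril proteins Mfap2 and Mfap4. They were chosen by gene symbol and make up 10 of the 37209 genes of the count table, and all 10 had a row. RNA had been sequenced from carotid arteries of male Sprague-Dawley rats (400 g on average). In the injured group (n = 4), the left carotid artery had been injured with a balloon catheter and was taken 2 weeks later. The control group (n = 4) consisted of undamaged right carotid arteries, described as self-controls, so the controls also came from animals that had undergone surgery on the other side. Nothing in the labels says which injured and control arteries share an animal. The comparison asks how the mRNA of the genes that build elastic fibres differs between an artery with a healing intima and an undamaged one.

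Elastic fibres give large arteries their recoil. Smooth muscle cells of the media secrete tropoelastin, which is cross-linked by lysyl oxidases onto a scaffold of fibrillin microfibrils, and the short fibulins guide the assembly. Most of this happens before and soon after birth, and elastin in the adult wall is hardly replaced.

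The total count was 13470754 to 15276952 per control library and 11459632 to 16658089 per injured library, so 3 counts, the smallest level considered, were 0.18 to 0.262 counts per 1e6 counts of the library (CPM), which covers counting error only. Control artery 4 stood apart. Its log2 CPM correlated with the other controls at 0.83 to 0.852 across 14359 genes, against 0.976 to 0.978 among those. The summed CPM of 8 smooth muscle markers (8 of 8 with counts) was 17429 in control artery 4, 37309 to 50551 in the other controls and 10558 to 16609 in the injured arteries. The summed CPM of 6 sympathetic neuron markers was 7072 in control artery 4, 1.8 to 4.47 in the other controls and 9.16 to 1095 in the injured arteries. Among the injured arteries these markers were highest in artery 3, where Dbh had 376 CPM and Th 213 CPM. Injured artery 1 had 35.3 and 12.5 CPM of these genes, and injured arteries 2 and 4 had at most 0.736 and 0.409 CPM. Macrophage markers (7 of 7 with counts) summed to 110 to 163 CPM in the controls and 382 to 519.9 CPM in the injured arteries. The part of these differences in the results below was not tested, except where values without control artery 4 are given. Skeletal muscle markers summed to 83.5 to 252 CPM in the controls and 213 to 839 CPM after injury, and cartilage markers to 12.5 to 21.7 and 119 to 398 CPM. The RNA extraction label names brain tissue. The summed CPM of 7 brain markers was 5.2 to 6.15 in controls 1 to 3, 49.4 in control artery 4 and 9.87 to 204 in the injured arteries. Most of the sum in the injured arteries came from Gfap, also a gene of glia in peripheral nerves, with up to 196 CPM in injured artery 3. In control artery 4, Gfap had 26.8 CPM and Camk2a 19.7 CPM, whereas no library exceeded 3 counts for Neurod6 or Gad2. The other 3 brain markers did exceed it. Gad1 had 23, 27, 13 and 3 counts in control arteries 1 to 4 and 1 to 7 counts per injured artery. Rbfox3 had 34 counts in control artery 4, 31 in injured artery 3 and at most 9 elsewhere, and Slc17a7 had at most 8 counts. In whole arteries, fewer cells of a type and less RNA per cell cannot be told apart.

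Of the 10 genes, 9 had enough counts to be tested by edgeR's quasi-likelihood method. Calls required both an FDR, the Benjamini-Hochberg adjusted p over all genes tested, under 0.05 and a fold change above 2. Fbn2 was called up and Fbln1 was called down, so 1 of 9 genes went each way. Over all 14359 genes tested, 8.31% were called up, 2.57% were called down and 10.9% were called in either direction. The median log2 fold change of the 9 genes was 0.03, beside -0.06 over all genes tested, and 5 of the 9 were positive. Without control artery 4, Eln was also called up, giving 2 genes up and 1 down, beside 12.3% up and 3.94% down of the 14758 genes tested then. Eln and Fbn2 lay above every control in all 4 injured arteries, as did 14.2% of all genes tested, and Efemp1 lay below every control, as did 9.51%. The other 6 tested genes overlapped between the groups.

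**Figure D1:**
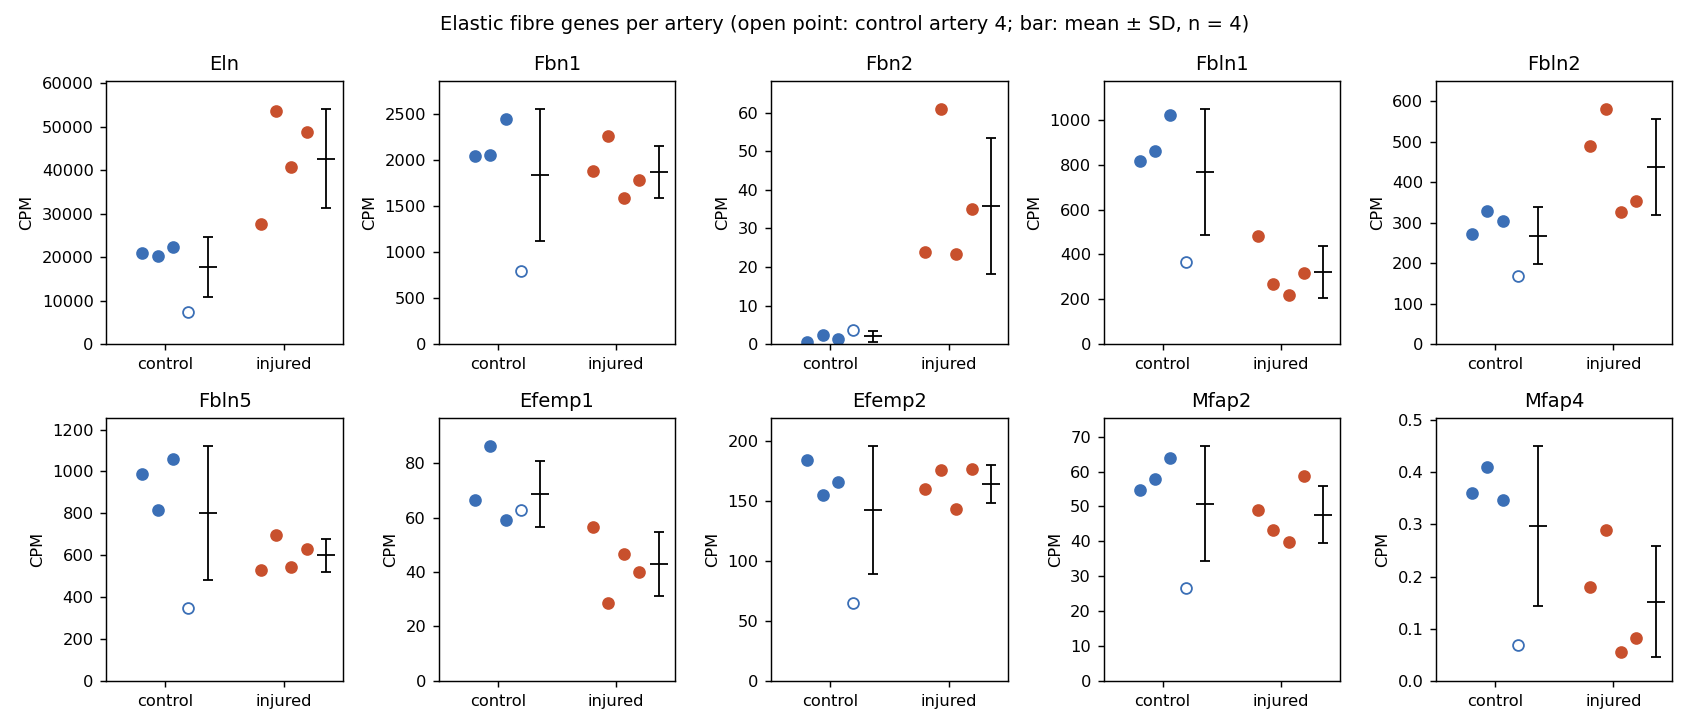
CPM of the 10 elastic fibre genes in each artery, with 1 panel per gene, a linear axis that starts at 0, filled points for single arteries, an open point for control artery 4 and a bar for the mean and SD of 4 arteries. Eln and Fbn2 were higher in each injured artery than in any control, Efemp1 was lower, and control artery 4 was the lowest control for 8 of the 10 genes.

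Eln encodes tropoelastin, the soluble precursor of the amorphous core of the fibre. Its level was 21005, 20190.3, 22441 and 7494 CPM in control arteries 1 to 4. In injured arteries 1 to 4 it was 27708, 53649, 40605 and 48666 CPM. The lowest injured artery was thus above the highest control, and control artery 4 had 0.353 times the mean of the other controls. With a mean of 17783 ± 6922 CPM (SD, n = 4) in the controls and 42657 ± 11323 CPM (SD, n = 4) after injury, the change on the log2 scale was 1.26 ± 0.42 (SE) at an FDR of 0.0753, so Eln was not called. With control artery 4 left out, it was called, with 1.00 (SE 0.23, FDR = 0.0145), which is just past the fold criterion. On all 8 arteries it was also called by DESeq2 (1.25, FDR = 0.0042) and by edgeR with library totals in place of TMM factors (1.45, FDR = 0.0323). It was not called in the 7 fits that left out another artery, where its FDR was between 0.0939 and 0.209. By raw count, which also grows with transcript length, Eln was the first of all 37209 genes in each of the 4 injured libraries. It was the third in controls 1 to 3, where Col3a1 led, and the sixth in control artery 4. The paper lists elastin among the genes upregulated after injury in its own analysis of the sequencing, which used DESeq. It also reports significantly higher elastin mRNA by real-time RT-PCR in injured arteries than in the contralateral ones. The RT-PCR primer pair for rat Eln is shown because it identifies the transcript that assay read. Both are written 5′ to 3′ in lower case.

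Eln forward: agacctgggtttggactttctc
Eln reverse: cggccacaagatttcccaaag

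The fibrillins form the microfibril scaffold. Fbn1 is the main fibrillin of the adult wall and Fbn2 is known mainly from the fetal and early postnatal period. The counts of Fbn2 were 9, 30, 18 and 53 in control arteries 1 to 4 and 400, 839, 414 and 427 in injured arteries 1 to 4. In CPM this was 0.648, 2.46, 1.25 and 3.68 in the controls and 23.9, 60.9, 23.2 and 34.9 after injury. Every injured artery was thus well above the highest control, which was control artery 4. The control mean was 2.01 ± 1.35 CPM (SD, n = 4), the injured mean was 35.7 ± 17.6 CPM (SD, n = 4), and Fbn2 thus rose 17.8-fold, or by 4.15 ± 0.59 (SE) on the log2 scale (FDR = 0.00283). Among the 1193 genes called up, this was the log2 fold change of rank 135. When control artery 4 was left out, it was 4.63 (SE 0.55, FDR = 0.000899).

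The 250 bases before the annotated start of Fbn2 are shown because Fbn2 had the largest change of the 10 genes. They come from RefSeq on build GRCr8, chr18:53901993-53902242, minus strand, written 5′ to 3′ along the gene, and end just before its first transcribed base. RefSeq promoters of this kind were matched for 7 of the 10 genes. Capitals mark each match, on either strand, of CAGAC, a core bound by Smad proteins, which carry TGF-beta signals.

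Fbn2: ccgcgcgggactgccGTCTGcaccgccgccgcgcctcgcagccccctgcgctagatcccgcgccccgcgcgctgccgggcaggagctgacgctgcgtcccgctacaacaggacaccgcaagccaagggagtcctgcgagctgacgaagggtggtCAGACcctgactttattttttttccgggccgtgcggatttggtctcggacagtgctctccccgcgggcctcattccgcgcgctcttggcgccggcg

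The stretch held 2 matches, and 42.9% of 33469 promoters of the same length held at least 1. The matches do not overlap. Among the 7 matched genes, 5 had at least 1. The other motifs searched on both strands had no match in the Fbn2 stretch. The GC box GGGCGG was present in 30.5% of all promoters and the TATA box TATAAA in 12.9%. The AP-1 site TGAGTCA was present in 4.05%, the E box CANNTG in 65.5% and the CArG box of serum response factor in 1.5%.

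Fbn1 was not called. It was 2043, 2058, 2447 and 797 CPM in control arteries 1 to 4 and 1882, 2259, 1587 and 1781 CPM in injured arteries 1 to 4. Injured arteries 1, 3 and 4 lay below controls 1 to 3 and injured artery 2 lay among them, whereas control artery 4, with 0.365 times the mean of the other controls, lay below all injured arteries. The log2 fold change of Fbn1 was 0.03 ± 0.33 (SE; FDR = 0.959), and without control artery 4 it was -0.22 (SE 0.14, FDR = 0.28).

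Fbln1 and Fbln2 are the large fibulins, secreted glycoproteins that bind elastin, fibrillin, fibronectin and proteoglycans. Fbln1 was 817, 861, 1021 and 368 CPM in control arteries 1 to 4. It was 483, 269, 218 and 316 CPM in injured arteries 1 to 4, so that all injured arteries lay below controls 1 to 3 and overlapped with control artery 4. Fbln1 fell from a mean of 767 ± 280.1 (SD, n = 4) to one of 322 ± 115 CPM (SD, n = 4), a log2 change of -1.25 ± 0.36 (SE) (FDR = 0.0464). Without control artery 4 the value was -1.49 (SE 0.25, FDR = 0.00396). The call of Fbln1 held in 2 of the 8 fits that left out 1 artery, those without control artery 4 and without injured artery 1. In the other 6 its FDR was between 0.0947 and 0.131, and with library totals in place of TMM factors it was 0.0685.

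Fbln2 was 271, 329.9, 304 and 169 CPM in control arteries 1 to 4 and 489.6, 581, 328 and 354 CPM in injured arteries 1 to 4. Only injured artery 3 reached into the range of the controls. The means were 269 ± 70.9 CPM (SD, n = 4) and 438 ± 119 CPM (SD, n = 4), and the log2 change of 0.71 ± 0.26 (SE) reached an FDR of 0.108, so Fbln2 was not called.

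The short fibulins Fbln5 and Efemp2 (fibulin-4) bring tropoelastin, lysyl oxidases and microfibrils together, whereas Efemp1 (fibulin-3) is a close relative found in connective tissue of several organs. Fbln5 was 987, 817, 1057 and 346 CPM in control arteries 1 to 4. It was 529.9, 697, 542 and 629 CPM in injured arteries 1 to 4, below controls 1 to 3 and above control artery 4. The log2 fold change of Fbln5 was -0.42 ± 0.32 (SE; FDR = 0.419). With control artery 4 left out, it was -0.68 (SE 0.14, FDR = 0.00909), past the FDR criterion but short of the fold criterion.

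Efemp2 was 184, 155, 166 and 64.7 CPM in control arteries 1 to 4 and 160.4, 176, 143 and 177 CPM in injured arteries 1 to 4. Apart from control artery 4, the groups covered overlapping ranges. The log2 fold change of Efemp2 was 0.20 ± 0.29 (SE; FDR = 0.68), and -0.04 (standard error 0.11) without control artery 4.

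Efemp1 was 66.4, 86.4, 59.2 and 62.8 CPM in control arteries 1 to 4. It was 56.7, 28.5, 46.6 and 40.0 CPM in injured arteries 1 to 4, and the groups did not overlap. Control artery 4 had 0.888 times the mean of the other controls for Efemp1, nearer to 1 than for the other 9 genes. The log2 fold change of Efemp1 was -0.68 ± 0.22 (SE) at an FDR of 0.0709, and it was not called. When control artery 4 was left out, it was -0.72 (FDR = 0.0482), again short of the fold criterion.

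Mfap2 and Mfap4 encode proteins that decorate microfibrils. Mfap2 was 54.6, 58.0, 64.0 and 26.7 CPM in control arteries 1 to 4 and 49.0, 43.2, 39.8 and 58.7 CPM in injured arteries 1 to 4. The groups overlapped. The log2 fold change of Mfap2 was -0.09 ± 0.26 (SE; FDR = 0.843), and with library totals in place of TMM factors its sign turned, to 0.10. In the GRCr8 annotation the span of Mfap2 overlaps that of Atp13a2, which had up to 3359 counts, and the strand setting of the counting is not given in the sources used here.

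Mfap4 is a fibrinogen-related protein of arterial elastic fibres. It had 5, 5, 5 and 1 counts in control arteries 1 to 4 and 3, 4, 1 and 1 counts in injured arteries 1 to 4. These are too few counts for the test, and a difference was not detectable at this depth. Its neighbours in the GRCr8 gene order differed widely. Mapk7 had 0 and B9d1 at most 4 counts in every library, and Slc47a2 had 0 to 18. Slc47a1 had 23 to 84 counts, Rnf112 had 5 to 478 and Epn2 had at least 1144. The part of read assignment in the low count of Mfap4 was not tested.

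**Figure D2:**
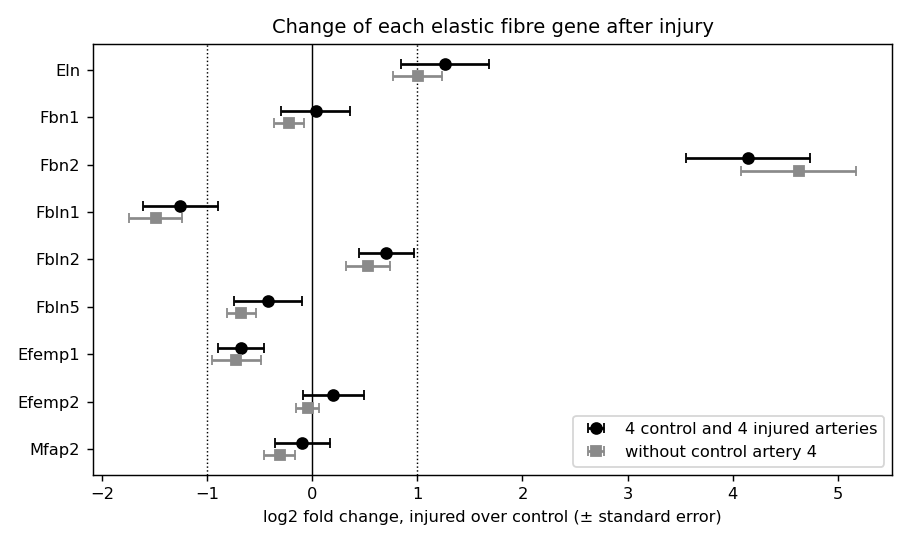
Log2 fold change (injured over control, horizontal axis, with its standard error from edgeR) of the 9 elastic fibre genes with enough counts, for all 8 arteries (circles) and without control artery 4 (squares); dotted lines mark a fold change of 2. Fbn2 at 4.15 and 4.63 stood far to the right, Fbln1 lay beyond the left dotted line at -1.25 and -1.49, and leaving out control artery 4 moved every gene except Fbn2 to the left.

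Ratios of 2 genes counted in the same library do not depend on how libraries are scaled. They were compared for 6 pairs with the exact permutation test over the 70 assignments of 4 and 4 arteries, two-sided, and the p-values were adjusted over the 6 pairs. The smallest p this design allows is 0.0286, or 0.0343 after the adjustment here. The log2 ratio of Fbln5 to Eln counts was -4.41, -4.63, -4.41 and -4.44 in control arteries 1 to 4. It was -5.71, -6.27, -6.23 and -6.27 in injured arteries 1 to 4. Control artery 4, which had low levels of both genes, was thus within the other controls for their ratio. The difference between the groups was -1.65 (standard error 0.15), which means that counts of Fbln5 per count of Eln after injury were 0.319 times those in the controls (adjusted p = 0.0343, exact permutation test).

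The ratio of Efemp2 to Eln was also lower after injury. It was -6.95 ± 0.12 (SD, n = 4) on the log2 scale in the controls and -7.98 ± 0.37 (SD, n = 4) after injury, a difference of -1.04 (standard error 0.20; adjusted p = 0.0343, exact permutation test). That of Fbn1 to Eln was -3.27 ± 0.07 (SD, n = 4) in the controls and -4.47 ± 0.41 (SD, n = 4) after injury, a difference of -1.20 (standard error 0.21; adjusted p = 0.0343, exact permutation test). In all 3 ratios to Eln, the 4 injured arteries lay below the 4 controls, and injured artery 1 was the nearest to the controls. Counts of the scaffold protein Fbn1 and of the assembly proteins Fbln5 and Efemp2 were therefore all lower relative to Eln in injured arteries. These 3 ratios share Eln and are not independent of each other.

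Within the 2 families, the balance also differed. The log2 ratio of Fbn2 to Fbn1 was -11.5, -9.68, -10.9 and -7.74 in control arteries 1 to 4 and -6.30, -5.21, -6.09 and -5.67 in injured arteries 1 to 4, a difference of 4.15 (standard error 0.87; adjusted p = 0.0343, exact permutation test). Fbn2 still had far fewer counts than Fbn1 in each injured artery. The log2 ratio of Fbln2 to Fbln1 was -1.59, -1.38, -1.75 and -1.13 in control arteries 1 to 4 and 0.02, 1.11, 0.59 and 0.16 in injured arteries 1 to 4. More reads were thus counted for Fbln1 in each control, and more for Fbln2 in each injured artery. The difference was 1.93 (standard error 0.28; adjusted p = 0.0343, exact permutation test), a 3.81-fold change of the ratio, although the change of Fbln2 on its own was not called. The ratio of Mfap4 to Mfap2 rests on 1 to 5 counts of Mfap4 and overlapped between the groups (adjusted p = 0.229, exact permutation test).

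**Figure D3:**
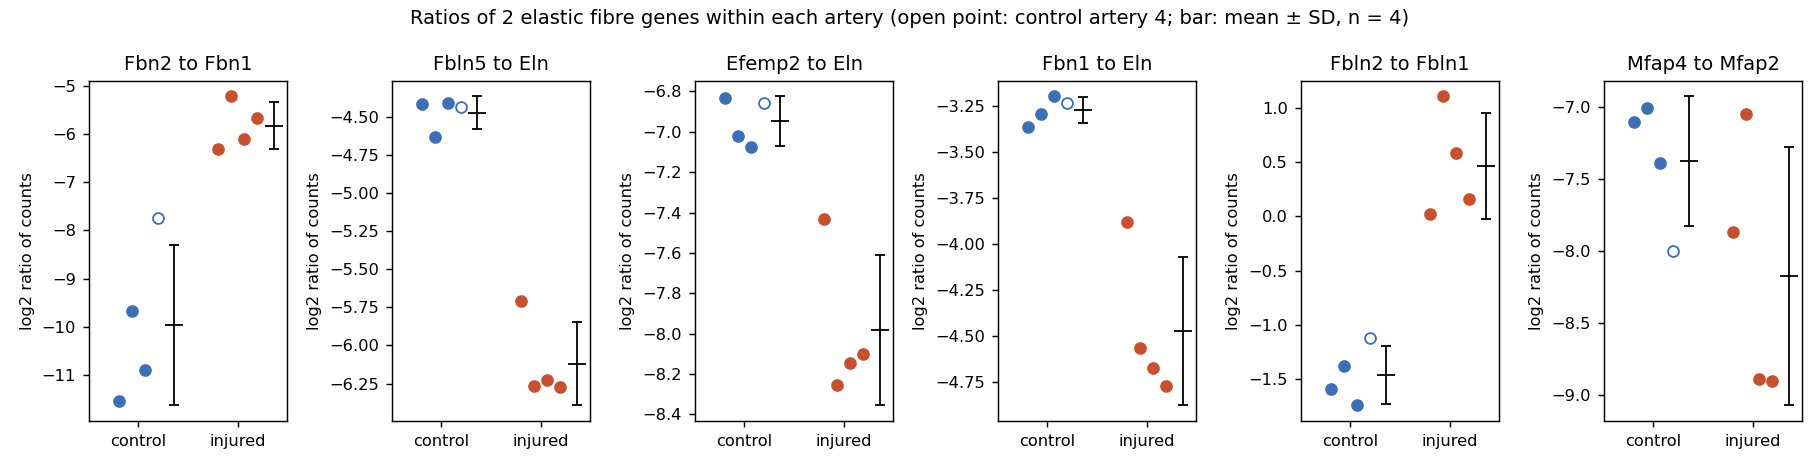
Log2 ratio of the counts of 2 elastic fibre genes within each artery, with 1 panel per pair, an axis per panel that does not start at 0, an open point for control artery 4 and a bar for the mean and SD of 4 arteries. In the first 5 panels the injured arteries lie apart from the controls, and for Fbln5, Efemp2 and Fbn1 relative to Eln control artery 4 lies among the other controls.

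The other genes of the pathway were taken from a list of 72 genes in 9 roles, of which 71 had a row and 61 had enough counts for edgeR's test. Of these 61, 11 were called up and 7 down, beside 8.31% up and 2.57% down of all genes tested. The 11 lay above every control in all injured arteries, whereas 6 of the 7 called down overlapped with the controls. In 5 of those 6 the overlap was with control artery 4, and for Timp4 it was with control artery 1. Calls need a large difference between the groups, so separation is partly built into the choice of the called genes. Among all genes tested, called or not, 14.2% lay above every control and 9.51% below. With control artery 4 left out, 12 of the pathway genes were called up and 9 down, beside 12.3% up and 3.94% down of all genes tested then. The number of calls down varied with the artery left out, and it was lower than 7 in each of the other 7 fits. None was made without control artery 2, control artery 3 or injured artery 2, 1 was made without injured artery 3 or injured artery 4, 2 without control artery 1 and 3 without injured artery 1, while 7 to 11 genes were called up in these 7 fits. They also depended on the scaling, with 11 up and 1 down under upper-quartile factors and 12 up and 2 down under library totals only. Shares over all genes tested are not given here for these fits, so the variation is not shown to be particular to the pathway. The genes described as fallen in the roles below share this dependence on the artery left out and on the scaling.

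None of the 5 cross-linking genes tested was called. Loxl2, at 0.91 (standard error 0.23) on the log2 scale and an FDR of 0.0306, passed the FDR criterion but not the fold criterion. It lay above every control in all 4 injured arteries, as did 14.2% of all genes tested. Lox and Loxl1, the lysyl oxidases that join tropoelastin molecules, had log2 fold changes of 0.09 (standard error 0.31) and 0.63 (standard error 0.31), at FDRs of 0.869 and 0.218. Atp7a, which loads these enzymes with copper, was listed at 0 in every library, as were 592 of 606 X-linked protein-coding genes, Bgn and Timp1 of the pathway among them. Of the 4 latent TGF-beta binding proteins none was called either. Ltbp4, which binds fibulins and is required for elastic fibre assembly, was 1502 ± 535 CPM (SD, n = 4) in the controls and 741 ± 163 CPM (SD, n = 4) after injury, or -1.02 on the log2 scale (FDR = 0.0631). Without control artery 4 it was called, with -1.26 (FDR = 0.00145).

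Among 12 other genes of the microfibril and fibulin families, 3 were called up and 1 down. Fbln7, another short fibulin, rose from a mean of 33.2 ± 4.48 (SD, n = 4) to one of 75.1 ± 5.33 CPM (SD, n = 4), or 1.18 on the log2 scale (FDR = 0.000786). The giant fibulin relative Hmcn1 rose from a mean of 24.0 ± 9.07 (SD, n = 4) to one of 65.1 ± 13.6 CPM (SD, n = 4), or 1.44 on the log2 scale (FDR = 0.0109). Emilin3 rose too, from 2 to 7 counts per control to 21 to 39 counts per injured artery, at an FDR of 0.00617. Mmrn1, an EMILIN family protein of platelets and endothelium, fell from a mean of 54.5 ± 27.3 (SD, n = 4) to one of 18.5 ± 6.88 CPM (SD, n = 4), a log2 change of -1.56 (FDR = 0.0346). Mfap5 and Emilin1, both components of elastic fibres of arteries, had log2 fold changes of -0.09 and 0.69 and were not called.

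**Figure D4:**
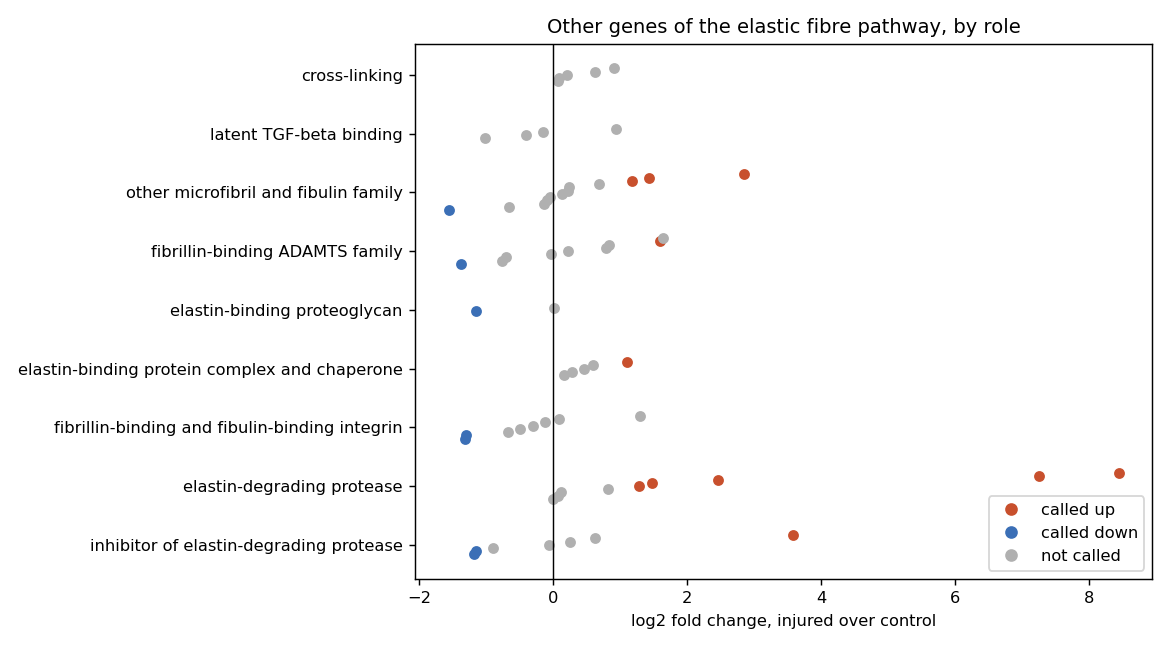
Log2 fold change (injured over control, horizontal axis) of the 61 other pathway genes with enough counts, in rows by role, with 1 point per gene colored by its call. The 11 genes called up lie to the right with 5 of them among the elastin-degrading proteases, and the 7 called down are spread over 5 roles. The points of Mmp12 and Mmp9, farthest to the right, rest on 0 to 4 counts per control.

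Among 9 fibrillin-binding genes of the ADAMTS family, 1 was called up and 1 down. Adamts17 rose from a mean of 8.83 ± 2.26 (SD, n = 4) to one of 26.8 ± 6.49 CPM (SD, n = 4), or 1.60 on the log2 scale (FDR = 0.00319). Thsd4, also known as ADAMTSL6, which promotes Fbn1 assembly, fell by 1.38 on the log2 scale (FDR = 0.0225). Of the proteoglycans, Dcn (decorin) fell by 1.15 on the log2 scale (FDR = 0.0277). Bgn (biglycan) was listed at 0 in every library. In the list of the elastin-binding protein complex, 1 of 5 was called, beside 8.31% of all genes called up. This was Lgals3 (galectin-3), up by 1.10 on the log2 scale (FDR = 0.00553), and Lgals3 is also an abundant macrophage gene. Glb1 had 0.60 (FDR = 0.00862), short of the fold criterion, and Ctsa had 0.46 (FDR = 0.0841). Both lay above every control in all injured arteries, as did 14.2% of all genes tested, whereas Neu1, at 0.16, overlapped. Of 8 integrins tested, Itga8 and Itga9 were called down, with log2 fold changes of -1.32 and -1.30 (FDR = 0.0393 and 0.0396), and none was called up.

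The proteases that can degrade elastin were the role with the most calls up, 5 of 9 tested, and none was called down. Over all genes tested, 8.31% were called up and 2.57% down. Mmp12 (macrophage elastase) had 1 to 3 counts per control and 339 to 1258 counts per injured artery (FDR = 0.000298). Mmp9 (gelatinase B) had 0 to 4 counts per control and 51 to 374 per injured artery (FDR = 0.0027). The cathepsins Ctss and Ctsk rose with log2 fold changes of 2.46 and 1.48 (FDR = 0.000225 and 0.0208), and 4 of 9 tested proteases were not called. Of 7 macrophage markers, 6 were called up in the same arteries, and the part of these cells in the protease values was not tested. Among 7 protease inhibitors tested, Slpi was called up, from 1, 3, 5 and 33 counts in control arteries 1 to 4 to between 87 and 154 per injured artery (FDR = 0.0275). Its log2 fold change was 3.58, and 5.29 without control artery 4. Timp3, an inhibitor held in the matrix, and Timp4 were called down, with log2 fold changes of -1.15 and -1.18 (FDR = 0.0335 and 0.0476). Timp1 was listed at 0 in every library.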

How the data were processed

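The authors deposited raw counts of reads per gene symbol for 8 libraries, 4 injured and 4 control carotid arteries, with no normalization. The submitters' processing notes name HISAT2 2.0.4. The counting tool, strand setting and genome build are not given in the sources used here, so overlapping genes and near-identical copies are uncertain. Counts were taken unchanged. In R 4.3.3, 14359 of 37209 genes passed filterByExpr of edgeR 4.0.16, libraries were scaled by TMM, and injured arteries were set against controls by the quasi-likelihood test, with no covariate. A call needed an FDR (Benjamini-Hochberg) under 0.05 plus a fold change above 2. Standard errors come from the F statistic, and CPM use the TMM factors. The labels do not say whether replicates are separate animals, so p-values measure only the spread between these arteries. Tested on simulated data for this comparison, with 200 genes changed by a log2 fold change of 2 up or down, edgeR recovered 73.5% (14146 genes run). It made 9 false calls. DESeq2 recovered 88% with 39 false calls (14321 genes run). The simulated data held no artery that stood apart as control artery 4 did. Ratios used a pseudocount of 0.5 counts and scipy 1.17.1.

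Alternatives changed the tool (DESeq2 1.42.0), the scaling (upper-quartile, RLE, totals alone, or sizes that omit the 10 genes with the most counts), and the filter (none, or a minimum of 10 counts per sample). Others added the replicate block, dropped each artery singly, used the FDR without a fold criterion, tested against a 2-fold threshold, or gave ratios a pseudocount of 2. The 10 genes, the gene lists and the tests were chosen with earlier results of these data known. All 10 genes are named. Of the other pathway genes, the called ones with up to 4 of the largest absolute log2 fold changes in each role are named, and always Lox, Loxl1, Ltbp4, Emilin1 and Mfap5. Symbols were matched without regard to case and then by synonyms in the GRCr8 RefSeq table. Atp7a, Bgn and Timp1, listed at 0, were named after their values were seen, as were Loxl2, Glb1, Ctsa and Neu1. Lists of endothelial, fibroblast, skeletal muscle, cartilage and adipocyte markers had 2, 1, 5, 3 and 0 genes called up and 1, 1, 0, 0 and 0 called down. The genes tested in these lists numbered 6, 6, 7, 4 and 5. Beside them, 8.31% of all genes tested were called up and 2.57% down.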

Additional observations from a re-analysis of the deposited data

Results flagged for a closer look

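In 32 groups of 4 arteries (10 genes and 6 ratios in both groups), 3 had an artery whose gap to its nearest neighbour, as a share of the whole range, exceeded Dixon's 95% critical value for 4 values, where chance gives about 1.6. For Eln in the controls the ratio of gap to range was 0.849, because control artery 4 had 7494 CPM and the nearest control had 20190.3 CPM. For the log2 ratio of Fbln5 to Eln it was 0.873 in the controls, where control artery 2 had -4.63 and the nearest control -4.44. It was 0.919 for the same ratio in the injured arteries, where injured artery 1 had -5.71 and the nearest injured artery -6.23.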

How the results depend on the processing

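Fbn2 was called in all 8 fits that left out 1 artery and under each alternative that tested it. The number of elastic fibre genes called was 2. It was 1, in each case Fbn2, with upper-quartile factors, without a filter, with the replicate block and in the test against a fold change of 2. A minimum of 10 counts per sample left 8 genes and 0 calls in edgeR, 4 of the 8 having an unadjusted p under 0.05, and Fbn2 was not tested because control artery 1 had 9 counts. DESeq2, with its own filter, called 3 (Eln, Fbn2 and Fbln1), and with library totals only the 2 genes called were Eln and Fbn2. Leaving out 1 artery gave 1 to 3 genes. Of the other pathway genes 18 were called, 9 (all up) with the replicate block, 4 in the test against a fold change of 2, and 8 to 21 without 1 artery. There were 8 without injured artery 2 (all up) or injured artery 4 (7 up), 9 without control artery 2 (all up), 10 without control artery 3 (all up) and 21 without control artery 4 (12 up). Shares over all genes tested are given only for the main fit and the fit without control artery 4. Same-numbered arteries deviated from their group means with correlations of 0.301, 0.45, -0.52 and -0.416. The control mean includes control artery 4, which stood apart, so these correlations cannot show whether the numbers pair arteries. The labels do not say either, and the main test used no pairing. With the replicate block Fbln1 had -1.22 (adjusted p = 0.116 in edgeR's test), and the sign-flip test of the ratios cannot go below 0.125. Signs turned for 3 genes that were not called. Leaving out 1 artery gave -0.22 (control artery 4) to 0.20 (control artery 3) for Fbn1, with -0.07 without injured artery 2. It gave -0.044 (control artery 4) to 0.34 (control artery 1) for Efemp2 and -0.31 (control artery 4) to 0.033 (control artery 3) for Mfap2, which had 0.10 with library totals only. Library totals only moved the median of all genes by 0.17 on the log2 scale. Leaving out 1 artery kept the difference in log2 ratio between 3.62 and 4.89 for Fbn2 to Fbn1, -1.79 and -1.60 for Fbln5 to Eln, -1.22 and -0.95 for Efemp2 to Eln, -1.40 and -1.10 for Fbn1 to Eln, and 1.72 and 2.08 for Fbln2 to Fbln1. The causes were not tested.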

Other observations

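Rows of X-linked genes were almost empty in the count table. Of 606 protein-coding symbols that the GRCr8 RefSeq table places on the X chromosome, 592 (97.7%) had 0 counts in every library, against 1541 of 16016 (9.62%) on the autosomes, where the share per chromosome was 4.61% to 15.1%. Flna, Pgk1 and Hprt1, which nearly all cells use, were among the X-linked genes listed at 0. So were Bgn, Timp1 and Atp7a of the elastic fibre pathway, whose zeros therefore say nothing about their expression in the artery. Gapdh, normally a very abundant mRNA, had 286 to 752 counts per library. Mapk7, next to Mfap4, had 0, whereas Epn2, another neighbour of Mfap4, had at least 1144. How the counts were assigned was not tested.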
